A study of Homo sapiens with 8 samples.

Results

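The genes described here are LCE3D and 6 other genes of the cornified envelope (IVL, SPRR1A, SPRR1B, SPRR3, TGM1 and TGM2), followed over 8 arrays of A549, a line derived from a human lung adenocarcinoma. They were found by symbol: every Affymetrix U133 plus 2.0 probe set that the platform annotation gives to 1 of these genes alone was taken, which yields 12 probe sets for 7 genes, of 54613 probe sets and 19775 genes in all. LCE3D was selected on its measured difference between treated and control spheroids, and the others were chosen with results of these arrays known, so the values in spheroids are given as a description, without a test. The 4 groups of 2 arrays were spheroids given TNF and TGFβ (3D treated), spheroids given vehicle (3D control), monolayers given the same cytokines (2D treated) and monolayers given vehicle (2D control). The cytokine doses were 10 ng/mL TNF with 2 ng/mL TGFβ, added for 2 rounds of 48 hours each in low-serum medium that all groups shared. Spheroids were aggregated in hanging drops and then kept from attaching to the plate. All arrays come from this 1 cell line, so they describe A549 and not lung epithelium at large. The methods call the arrays of a group technical duplicates and the deposited design calls them biological replicates, so a p-value here measures only the spread between these arrays, which may be technical.

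The cornified envelope is the protein shell that replaces the plasma membrane of a keratinocyte at the end of its differentiation. Transglutaminases cross-link its building blocks: involucrin (IVL), loricrin, the small proline-rich proteins (SPRR) and the late cornified envelope proteins (LCE), most of which are encoded side by side in the epidermal differentiation complex on chromosome 1. Involucrin is laid down early and the LCE proteins late. TGM1 is the membrane-bound transglutaminase of keratinocytes, whereas TGM2 is a widely expressed enzyme that also acts outside the cell, where it binds fibronectin and integrins.

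The RefSeq promoter set used here held 5 of the 7 genes, LCE3D, IVL, SPRR1A, SPRR1B and SPRR3. The 250 bases before each start were searched on both strands for 3 motifs. TGM1 and TGM2 had no entry in that set, so their promoters were not searched. The AP-1 motif TGANTCA was present in 4 of these 5 genes and in 6.6% of all 27305 RefSeq promoters of this length. SPRR1B had it at 2 places, and no match was found in the LCE3D window. The letters CAGACA, a SMAD-type element, were found in SPRR1B alone of the 5 and in 13.6% of all promoters, and the NF-κB motif was found in none of the 5 and in 9.57% of all promoters. The motifs do not overlap in these windows. The whole LCE3D window is shown because this is the gene whose level stood apart, and the other sequences are the AP-1 matches of its neighbours with 25 bases on each side. All are 5′ to 3′ along the gene, from RefSeq on GRCh38.p14, with the AP-1 letters in capitals. A match is a string of letters and not a measured binding site.
LCE3D, chr1:152580517-152580766, minus strand: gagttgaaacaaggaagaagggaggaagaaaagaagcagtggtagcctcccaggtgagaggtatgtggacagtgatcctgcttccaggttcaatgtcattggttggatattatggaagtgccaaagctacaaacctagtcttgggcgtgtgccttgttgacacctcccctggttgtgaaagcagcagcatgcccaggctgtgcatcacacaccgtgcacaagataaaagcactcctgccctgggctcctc
IVL, chr1:152908398-152908454, plus strand: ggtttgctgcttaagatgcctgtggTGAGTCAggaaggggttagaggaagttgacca
SPRR1A, chr1:152983948-152984004, plus strand: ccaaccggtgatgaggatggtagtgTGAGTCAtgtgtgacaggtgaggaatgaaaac
SPRR1B, chr1:153031037-153031093, plus strand: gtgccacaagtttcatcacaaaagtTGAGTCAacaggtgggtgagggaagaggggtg
SPRR1B, chr1:153031067-153031123, plus strand: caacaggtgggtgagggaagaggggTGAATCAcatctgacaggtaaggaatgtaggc
SPRR3, chr1:153001554-153001610, plus strand: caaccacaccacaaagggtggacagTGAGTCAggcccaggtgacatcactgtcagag
The first base of the motif lies 123 bases before the start of IVL, 108 before SPRR1A, 141 and 111 before SPRR1B, and 170 before SPRR3.

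Values are log2 expression per probe set. No value in the table is below 2.235, the array medians lie between 2.43 and 2.5, and a probe set below the median of its array carries no usable signal. LCE3D, a late cornified envelope gene, was measured by 1 probe set (224328_s_at) and read 12.86 and 11.40 in 3D treated cultures. The same probe set read 2.32 and 2.32 in 3D control, 2.30 and 2.32 in 2D treated and 2.30 and 2.32 in 2D control cultures. It was therefore below the array median on all 6 arrays outside the 3D treated group, and that group did not overlap any other. Against the medians of the 3D control arrays, LCE3D was at least 828-fold higher in 3D treated cultures. Taken separately, treated replicate 1 gives at least 1370-fold and treated replicate 2 at least 499-fold. On the log2 scale this bound is 9.69. The suffix of this probe set marks probes that can match several transcripts, and LCE genes are close relatives, so part of the signal may come from another LCE transcript.

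**Figure D1:**
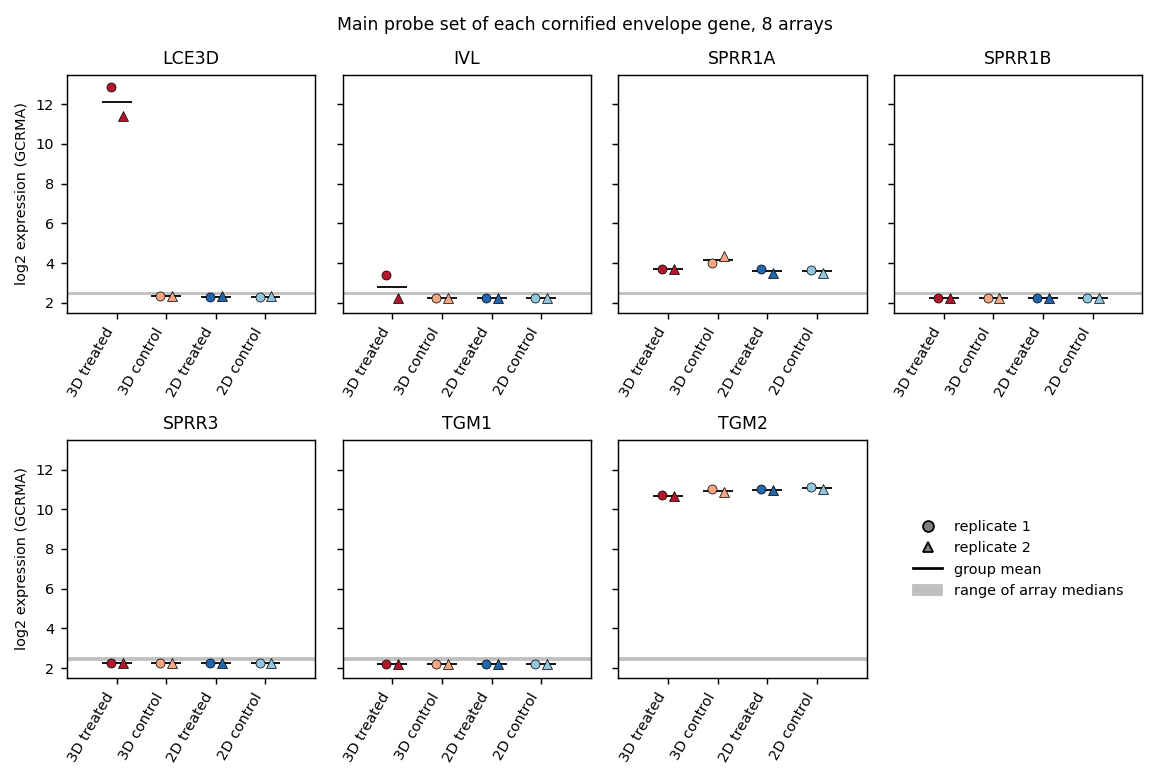
Log2 expression of the main probe set of each of the 7 genes, with the 4 groups on the horizontal axis, circles for replicate 1, triangles for replicate 2, bars for group means and a grey band for the range of array medians. LCE3D is at 12.86 and 11.40 in 3D treated cultures and below the band on the other 6 arrays, whereas SPRR1B, SPRR3 and TGM1 are below the band on all 8.

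The replicates of treated spheroids did not give the same amount of LCE3D. Replicate 1 was 1.46 above replicate 2, a 2.75-fold gap. Of 4265 probe sets with a mean over 10 in 3D treated cultures, LCE3D had the largest gap between these arrays, where the median absolute gap was 0.119 and the 99th percentile 0.729. Among the 50 probe sets with a 3D difference over 5, replicate 1 was the higher in 45, with a median gap of 0.662.

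IVL, which encodes the early scaffold protein involucrin, read 3.39 and 2.24 in 3D treated cultures and 2.24 on the arrays of every other group. Its signal was above the array median on treated replicate 1 alone, so a level in this group rests on that array. On the same array 70 probe sets of the whole table were over 3 while below the median on the other 7 arrays, and 85 were so on treated replicate 2, 21 and 31 in 3D control, 14 and 11 in 2D treated and 16 and 92 in 2D control cultures. Values of this kind were thus found on each array.

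SPRR1A, a small proline-rich cross-bridging protein, was above the array median on all 8 arrays on its main probe set (214549_x_at). It read 3.70 and 3.72 in 3D treated, 3.99 and 4.36 in 3D control, 3.70 and 3.51 in 2D treated and 3.67 and 3.50 in 2D control cultures. The 3D control arrays were the highest and overlapped no other group, and the remaining arrays lay between 3.50 and 3.72. The suffix of this probe set marks probes shared with other sequences, and the second SPRR1A probe set (213796_at) was at 2.23 on all 8 arrays, so the signal cannot be given to SPRR1A with certainty. SPRR1B was at 2.23 on all arrays, and the SPRR3 probe sets were at 2.26 and 2.23 on all arrays. Transglutaminase 1 (TGM1) was likewise at 2.23 on all arrays. For SPRR1B, SPRR3 and TGM1 no signal was detectable in any group, which is not the same as an absence of transcript.

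TGM2, tissue transglutaminase, was bright in every group. Its main probe set (201042_at) read 10.73 and 10.65 in 3D treated, 11.03 and 10.85 in 3D control, 11.01 and 10.95 in 2D treated and 11.11 and 11.01 in 2D control cultures. The 3D treated arrays were the lowest, and the other groups overlapped or touched. A second probe set (211003_x_at) read 9.12 and 8.64 in 3D treated, 8.94 and 8.49 in 3D control, 8.57 and 8.61 in 2D treated and 8.51 and 8.49 in 2D control cultures. The third (211573_x_at) read 8.56 and 7.99 in 3D treated, 8.30 and 7.84 in 3D control, 7.89 and 7.89 in 2D treated and 7.83 and 7.68 in 2D control cultures. On both x_at probe sets the treated and control spheroids overlapped. The difference between 3D treated and 3D control cultures was −0.25 on the main probe set and 0.16 and 0.21 on the others, so that the TGM2 probe sets disagree in sign. The fourth probe set (216183_at) stayed between 2.23 and 2.25.

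**Figure D2:**
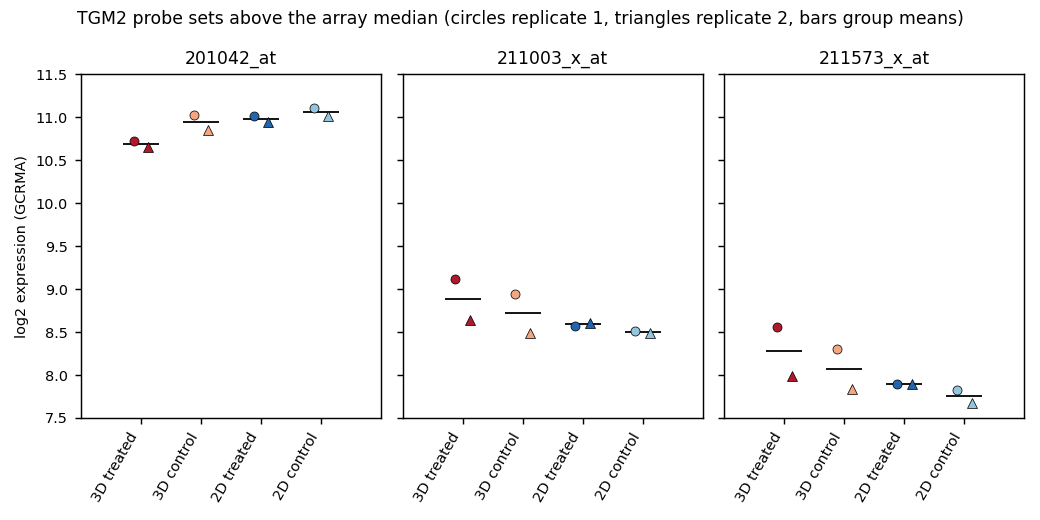
Log2 expression of the 3 TGM2 probe sets above the array median, by group on the horizontal axis, with circles for replicate 1, triangles for replicate 2 and bars for group means. The main probe set is lowest in 3D treated cultures, at 10.73 and 10.65, whereas on the x_at probe sets the 3D treated mean is the highest and replicate 1 of both spheroid groups lies above replicate 2.

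Counted over the main probe sets, 1 of the 7 genes differed by over 1 between 3D treated and 3D control cultures, and the median difference was 0.0, the same as over all genes. In this comparison 10.8% of all probe sets passed the threshold, an adjusted p under 0.05 by limma with Benjamini-Hochberg adjustment over all probe sets. Nothing is read from the members against that share, since the comparison was used to choose them. Of the 12 probe sets, 6 were above the array median on no array and 4 on all 8.

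Whether the cytokines moved these genes in monolayers was tested, since LCE3D was selected on the spheroid arrays and not on these. The other genes were chosen with results of these arrays known, so their p-values may not be independent of that choice. Of the 7 genes, 5 (LCE3D, IVL, SPRR1B, SPRR3 and TGM1) were below the array median on all 4 of the 2D arrays and so had no signal to compare, which leaves SPRR1A and TGM2. By limma 0 of 7 genes passed, 0 had an unadjusted p under 0.05 and 0 passed with ordinary t statistics, against 0.183% of all probe sets called, a share at which no call among 7 genes is the usual count. LCE3D differed by 0.0 between 2D treated and 2D control cultures (95% interval −1.33 to 1.33, adjusted p = 1 by limma). This interval is wide because the fit shares 1 estimate of the spread over the groups and so takes in the gap between the 3D treated arrays. SPRR1A differed by 0.02 (SE 0.15, interval −0.39 to 0.42, adjusted p = 1 by limma) and TGM2 by −0.09 (SE 0.08, interval −0.30 to 0.12, adjusted p = 1 by limma). The x_at probe sets of TGM2 differed by 0.08 (SE 0.22) and 0.13 (SE 0.25), which is within their error. As a description, the 3D response was −0.48 relative to the 2D response for SPRR1A and −0.16 for TGM2 on the main probe sets.

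The effect of growth as a spheroid without cytokines was tested in the same way, though the 3D control arrays also belong to the comparison from which LCE3D was chosen. The same 5 genes were below the array median on all 4 arrays here. In 3D control against 2D control cultures 0 of 7 genes passed by limma, 1 had an unadjusted p under 0.05 and 0 passed with ordinary t statistics, against 7.29% of all probe sets called. That gene was SPRR1A, at 0.59 on the log2 scale or 1.5-fold (SE 0.15, interval 0.18 to 0.99, adjusted p = 0.112 by limma), with both 3D control arrays above both 2D control arrays. With dim probe sets filtered out before adjustment, its adjusted p by limma was 0.0353, and over the alternatives it ranged between 0.0353 and 0.364. LCE3D differed by 0.01 (interval −1.32 to 1.34, adjusted p = 1 by limma). TGM2 differed by −0.13 on its main probe set (SE 0.08, adjusted p = 0.591 by limma) and by 0.21 and 0.31 on the x_at probe sets, with adjusted p = 0.858 and 0.678 by limma.

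LCE3D was compared with the measured genes around it on the chromosome. It was selected on its difference in spheroids, so nothing is read from its being larger than theirs. From TCHHL1 to LORICRIN the epidermal differentiation complex holds 45 protein-coding genes in the RefSeq order on chromosome 1, of which 22 had a probe set of their own here, and the stretch was chosen after the value of LCE3D was known. Of the 21 measured genes other than LCE3D, 15 were below the array median on all arrays, as were 32.3% of all genes. In 20 of the 21 the difference between 3D treated and 3D control cultures was at most 0.6. The exception was PRR9, a proline-rich gene of the complex, at 6.28 and 3.04 in 3D treated cultures and 2.23 on all other arrays. Its replicates lay far apart and its difference of 2.43 did not pass the test (adjusted p = 0.346 by limma). The nearest measured genes, CRCT1 on one side and LCE2B on the other, were at 2.23 on every array, with 1 and 5 genes between them and LCE3D that have no probe set of their own here. LORICRIN, the major structural protein of the envelope, was at 2.49 on 3D treated replicate 1 and at 2.23 on all other arrays.

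**Figure D3:**
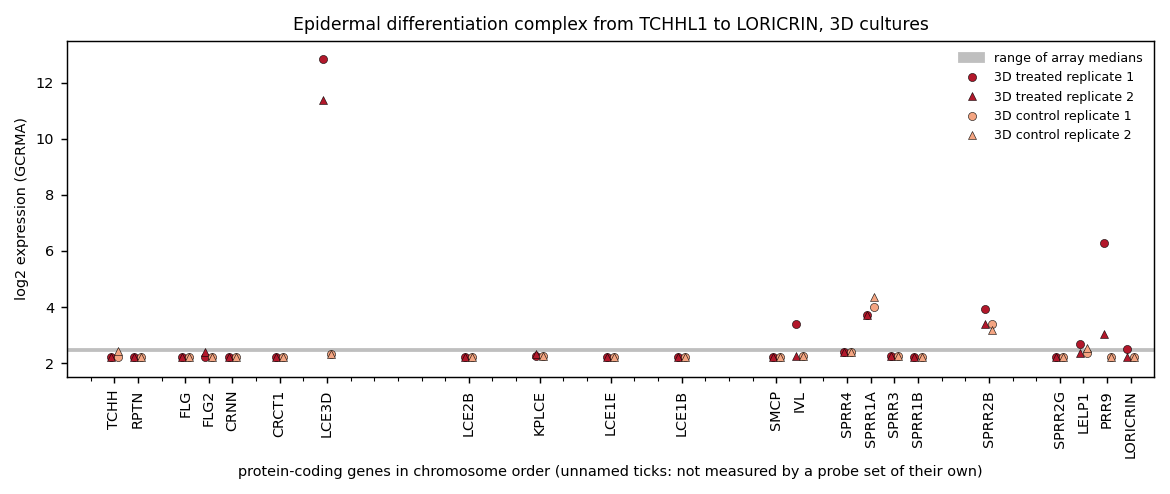
Log2 expression on the 4 spheroid arrays for the measured genes of the epidermal differentiation complex, in chromosome order along the horizontal axis, with dark symbols for 3D treated, light symbols for 3D control cultures and a grey band for the range of array medians. LCE3D is at 12.86 and 11.40 in 3D treated cultures, PRR9 is at 6.28 and 3.04, and 20 of the 21 genes other than LCE3D differ by at most 0.6 between the groups.

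The profile of LCE3D over the 8 arrays was most like those of MMP9, INHBA, GAL, PPP1R14C and MMP1, among 12551 genes above the array median on both arrays of a group. Likeness is the root mean square difference on the log2 scale between profiles that were each centred on their own mean, and it was 0.65, 0.78, 0.94, 0.96 and 0.98 in that order. MMP9, the gelatinase B gene, read 11.45 and 10.48 in 3D treated, 2.75 and 2.95 in 3D control, 2.41 and 2.45 in 2D treated and 2.53 and 2.26 in 2D control cultures. INHBA, which encodes the activin A subunit of the TGFβ family, read 10.86 and 9.63 in 3D treated cultures and 2.23 on all other arrays. GAL, the neuropeptide galanin, read 11.03 and 10.18 in 3D treated and 2.82 and 2.82 in 3D control cultures. PPP1R14C, a protein phosphatase inhibitor, read 10.73 and 10.23 in 3D treated and 2.44 and 2.44 in 3D control cultures. Unlike LCE3D it was also higher in 2D treated cultures, at 2.89 and 3.43, than in 2D control cultures, at 2.44 and 2.44 (difference 0.72). MMP1, interstitial collagenase, read 14.09 and 13.36 in 3D treated and 4.89 and 4.91 in 3D control cultures. Between 2D treated and 2D control cultures GAL differed by −0.07 and MMP1 by 0.13. MMP9, GAL and MMP1 were above the array median in 3D control cultures, whereas LCE3D was not. Since these genes were picked by likeness over the same arrays, the order of their treated replicates is part of the choice.

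**Figure D4:**
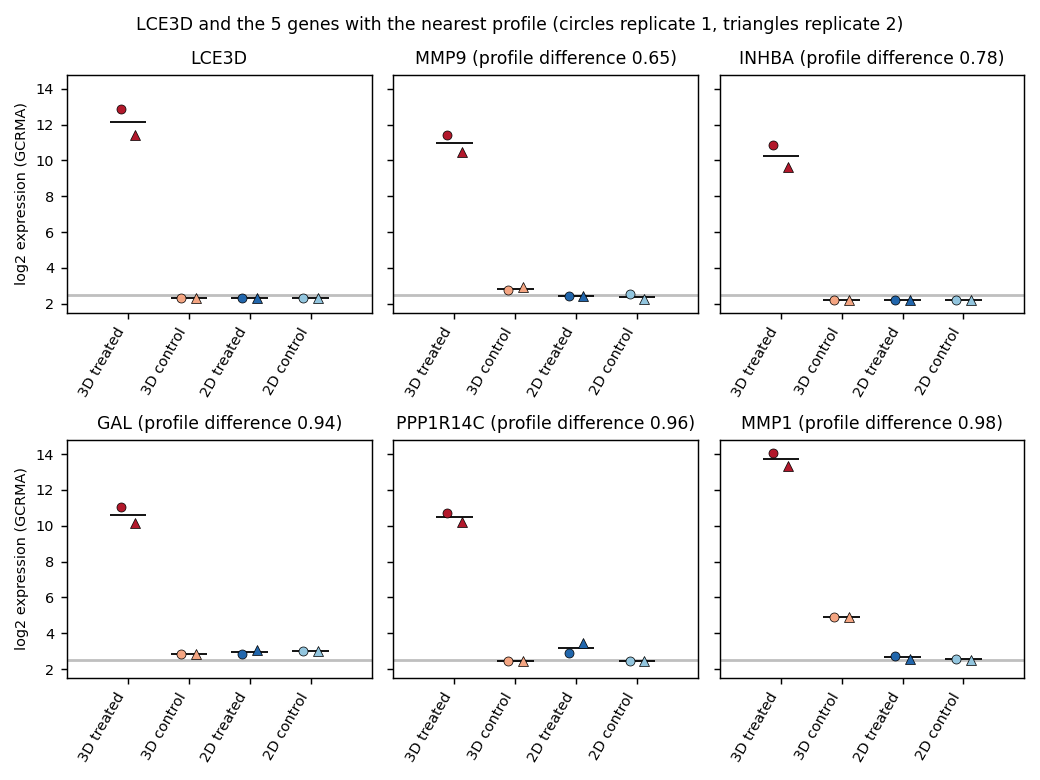
Log2 expression of LCE3D and the 5 genes with the nearest profiles, by group on the horizontal axis, with circles for replicate 1, triangles for replicate 2, bars for group means and a grey band for the range of array medians. Each is highest in 3D treated cultures, and the 3D controls of MMP1 are at 4.89 and 4.91.

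Other genes of the envelope were described by the same comparison. These lists and those that follow were chosen with earlier results of these data known. Of 50 further LCE, SPRR, envelope precursor and transglutaminase genes, 30 had a probe set of their own, 17 were below the array median on all arrays and 12 were above it on all 8. Of all genes 32.3% were below it on all arrays and 60.2% above it on all 8. Being above the median does not by itself show a signal. TGM5, among the 12, stayed between 3.66 and 3.74 on every array. In 3D treated against 3D control cultures 0 rose, 4 fell and 26 did not pass (13.3% called by limma, against 10.8% of all probe sets and 16.4% of all genes), a share close to that of all genes. The median difference was 0.0, as over all genes, and the largest positive difference was 0.50. Without 3D treated replicate 2 the count was 8, with 4 higher and 4 lower, and with only the 4 spheroid arrays it was 1. The 3 measured LCE genes (LCE1B, LCE1E and LCE2B) were at 2.23 on all arrays, and of the 4 measured SPRR genes only SPRR2B, at 3.93 and 3.40 in 3D treated and 3.41 and 3.19 in 3D control cultures, was above the median on all arrays.

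The 4 genes that fell build or cross-link the envelope. PPL (periplakin, a plakin that anchors the envelope to keratin filaments) read 3.6 and 3.61 in 3D treated and 6.16 and 6.02 in 3D control cultures, and fell by 2.49 on the log2 scale (SE 0.24, adjusted p = 0.0105 by limma). CNFN, cornifelin, read 6.44 and 6.43 in 3D treated and 7.26 and 7.15 in 3D control cultures (−0.77, adjusted p = 0.008 by limma). TGM3, the epidermal transglutaminase, was close to background, at 2.80 and 2.80 in 3D treated and 4.21 and 3.73 in 3D control cultures (−1.18, adjusted p = 0.0246 by limma). ANXA1, a phospholipid-binding annexin that is also an envelope substrate, read 13.32 and 13.20 in 3D treated and 13.74 and 13.82 in 3D control cultures (−0.52, adjusted p = 0.0126 by limma). In each of the 4 the groups did not overlap, which adds nothing to the calls by which these genes were picked. With only the 4 spheroid arrays the calls for CNFN, ANXA1 and TGM3 were lost (adjusted p = 0.0691, 0.116 and 0.18 by limma). The call was lost by a little for PPL without 3D control replicate 1 (adjusted p = 0.0509 by limma) and for ANXA1 without 3D control replicate 2 (adjusted p = 0.0562 by limma). That for TGM3 was lost without either 3D treated array or any 2D array (adjusted p up to 0.085 by limma). In monolayers 0 of the 30 passed by limma, 4 had an unadjusted p under 0.05, 0 passed with ordinary t statistics, and the differences ran between −0.61 and 0.93.

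Between 3D control and 2D control cultures 5 of these 30 genes passed by limma (16.7%, against 7.29% of probe sets and 10.7% of genes) and 2 with ordinary t statistics. The 5 are named after their values were seen. CSTA, the protease inhibitor cystatin A, was higher by 2.14, PPL by 1.47, TGM3 by 1.18 and CNFN by 0.76, with adjusted p between 0.014 and 0.0467 by limma, and ANXA1 was lower by 0.54 with adjusted p = 0.0192 by limma. PPL, TGM3 and CNFN were thus above the 2D controls in 3D control cultures and below the 3D controls in 3D treated cultures. These comparisons share the 3D control arrays, so a high value on those arrays enters both.

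Genes of other steps of cornification were also compared in spheroids, where 16.4% of all genes were called. Of 9 measured desquamation proteases and inhibitors 0 passed by limma and 0 had an unadjusted p under 0.05. Of 6 enzymes and transporters of the barrier lipids, 1 rose and 1 fell. ALOXE3, an epidermal lipoxygenase that acts on ceramide lipids, read 6.40 and 6.0 in 3D treated, 3.08 and 3.13 in 3D control, 3.66 and 3.13 in 2D treated and 2.23 and 2.24 in 2D control cultures. It rose 8.53-fold in spheroids (log2 difference 3.09, SE 0.23, adjusted p = 0.00618 by limma) and differed by 1.16 in monolayers (adjusted p = 0.247 by limma). ABCA12, the keratinocyte lipid transporter, read 2.72 and 2.86 in 3D treated and 4.18 and 3.75 in 3D control cultures (−1.17, adjusted p = 0.0241 by limma). Of 8 measured regulators of epidermal differentiation 2 rose and 0 fell. PRDM1, a transcriptional repressor, read 5.78 and 5.48 in 3D treated and 4.13 and 4.07 in 3D control cultures (1.53, adjusted p = 0.0344 by limma). On the PRDM1 probe set with the largest difference the value was 3.6 (adjusted p = 0.0152 by limma). KLF4, a barrier transcription factor, read 11.04 and 11.25 in 3D treated and 10.24 and 10.59 in 3D control cultures (0.73, adjusted p = 0.0485 by limma, a call lost in 12 of 17 alternatives). All 4 of these calls, for ALOXE3, ABCA12, PRDM1 and KLF4, were lost with only the 4 spheroid arrays (adjusted p = 0.0638, 0.17, 0.0872 and 0.261 by limma). The calls for ABCA12 and KLF4 were lost without either 3D treated array or any 2D array, that for KLF4 also without 3D control replicate 1, and that for PRDM1 without any 3D array or 2D treated array, with adjusted p between 0.0593 and 0.153 by limma.

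Genes whose proteins bind TGM2 or work with it at the cell surface were compared as well. Of 6 measured partners 3 (SDC4, ADGRG1 and ITGB3) rose and 0 fell in spheroids, where 10.8% of probe sets and 16.4% of genes were called. The median difference was 1.09, against 0.0 over all genes. Of the 6 partners, 5 were above the array median on all 8 arrays, as were 60.2% of all genes. This list was chosen with earlier results of these data known, so nothing is read from its counts or median against the whole array. SDC4, the heparan sulphate proteoglycan syndecan 4, read 12.75 and 12.59 in 3D treated, 9.71 and 9.62 in 3D control, 10.22 and 9.80 in 2D treated and 8.96 and 8.79 in 2D control cultures. It rose 8.02-fold in spheroids (log2 difference 3.00, SE 0.17, adjusted p = 0.00366 by limma) and differed by 1.14 in monolayers (adjusted p = 0.156 by limma). ADGRG1, an adhesion G protein-coupled receptor that binds TGM2, read 11.38 and 11.21 in 3D treated, 9.19 and 8.90 in 3D control, 10.21 and 10.04 in 2D treated and 10.10 and 10.19 in 2D control cultures. It rose 4.77-fold in spheroids (log2 difference 2.25, SE 0.13, adjusted p = 0.0039 by limma). The difference between the 3D and 2D responses itself passed for SDC4 and ADGRG1, 2 of the 6 partners. Over the whole array 2.32% of probe sets and 3.26% of genes passed. ITGB3, the integrin β3 subunit, read 3.97 and 3.41 in 3D treated cultures and 2.36 on all other arrays (measured difference 1.33, adjusted p = 0.0246 by limma), with the other 6 arrays below the array median, and this call was lost without any 1 of those arrays (adjusted p up to 0.105 by limma). The calls for ADGRG1 and ITGB3 were also lost with only the 4 spheroid arrays (adjusted p = 0.0691 and 0.188 by limma). FN1, ITGB1 and LRP1, which encode fibronectin, integrin β1 and an endocytic lipoprotein receptor, differed by 0.08, 0.14 and 0.85 and did not pass.

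**Figure D5:**
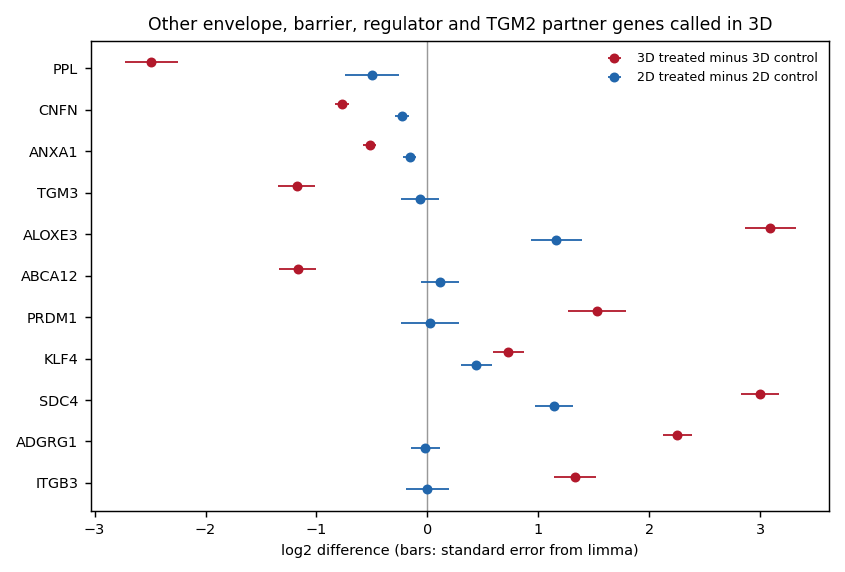
Log2 differences between treated and control cultures for the 11 further genes called in 3D, red for 3D and blue for 2D, with bars for the limma standard error. SDC4, ALOXE3 and ADGRG1 have the largest positive 3D differences, at 3.00, 3.09 and 2.25, and PPL the largest negative one, at −2.49.

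The methods name A549 as the only cells in these cultures, so the marker genes were read as a description of that line. In bulk samples, fewer cells of a kind and less RNA per cell cannot be told apart. All 8 markers of the A549 line were above the array median on all arrays. In treated spheroids 7 of them were called lower, as were 2141 of all 19775 genes. The summed level of the 8 markers was 16.36 to 16.39 in 3D treated and 17.20 to 17.22 in 3D control cultures on the log2 scale. Of the basal keratinocyte markers KRT5 and KRT14 were at 2.23 on all arrays, and KRT15 was at 8.31 and 8.62 in 3D treated, 8.39 and 8.36 in 3D control, 6.05 and 5.96 in 2D treated and 7.17 and 7.21 in 2D control cultures. Of 7 differentiated keratinocyte markers 6 (KRT1, KRT2, KRT4, KRT13, DSG1 and DSC1) were below the median on all arrays, and KRT10 alone was above it. The summed level of these 7, which is that of KRT10, was 12.74 to 13.02 in 3D treated and 12.80 to 12.87 in 3D control cultures. Of the leukocyte markers PTPRC, CD3E and MS4A1 were below the median on all arrays, but CD14 was at 6.05 and 5.28 in 3D treated, 8.68 and 8.36 in 3D control, 9.69 and 8.79 in 2D treated and 9.59 and 8.55 in 2D control cultures, and fell by 2.86 in spheroids (adjusted p = 0.0477 by limma). Of the endothelial markers CDH5, VWF and KDR were below the median on all arrays and PECAM1 was between 4.24 and 4.61. Of the fibroblast markers COL1A2 and DCN were below the median on all arrays and COL1A1, on its main probe set of 5, was between 7.17 and 7.82. The paper, which took the probe set with the largest difference, reports COL1A1 as raised in treated spheroids. LUM was at 4.52 and 2.77 in 3D treated cultures and at most 2.66 elsewhere, and PDGFRA was at 3.58 and 2.35 in 3D treated cultures and at most 2.35 elsewhere, so both stood up on treated replicate 1, the array on which LCE3D and IVL were highest. Which cells of the cultures gave the LCE3D signal was not tested.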

How the data were processed

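Affymetrix U133 plus 2.0 arrays of 4 groups, 2 arrays each, were analysed. The deposited values are log2 expression per probe set, which the authors obtained by GCRMA (background subtraction, normalization and probe set summary). The submitters' processing notes name limma 3.6.9. No value was normalized further here. Of 54675 probe sets, 62 Affymetrix controls were left out. Of 54613 tested, 41091 name 1 gene, 1801 several and 11721 are unnamed in the annotation used. Replicate arrays had identical values for 42 to 45.2% of probe sets, at the bottom of the scale, and correlations between 0.9922 and 0.9954. Only 8 arrays limit the precision.

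Groups were compared with limma 3.58.1 in R 4.3.3 (4 group means, all 8 arrays, 4 residual degrees of freedom, prior 0.347), with Benjamini-Hochberg adjustment over all probe sets at 0.05. The fit was tested on simulated data. Each gene is read on its main probe set, that of the highest mean level. Folds against a group below the array median are lower bounds against its array medians. The members and gene lists were chosen with earlier results of these data known. Beside the members, the genes named are up to 4 called genes of each list with the largest differences in 3D or 2D, and the nearest profiles of LCE3D. PRR9, S100A10, the genes called between controls and the uncalled list genes given for context were named after their values were seen. Promoters are RefSeq sequences on GRCh38.p14, and gene order is from RefSeq. Alternatives varied 1 choice at a time. They were quantile normalization, array medians subtracted, an eBayes intensity trend, ordinary t statistics, removal of dim probe sets (those not above the median on 2 or more arrays), a gene's probe set taken by the largest difference (as in the methods), p-values adjusted over main probe sets alone, fits of just the 4 arrays compared, a replicate block, and leaving out each array. Plots used matplotlib 3.10.9 in Python 3.11.15.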

Additional observations from a re-analysis of the deposited data

Results flagged for a closer look

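The difference between the 3D and 2D responses passed the test in 6 listed genes, 3 of them cell type markers. Of all probe sets 2.32% passed, and of all genes 3.26%. The lists were chosen with earlier results of these data known, so nothing is read from this count. ADGRG1 responded more in spheroids by 2.27 on the log2 scale (SE 0.18, adjusted p = 0.0199 by limma), with a 3D difference of 2.25 and a 2D difference of −0.02. Its 3D controls differed from its 2D controls by −1.1 (adjusted p = 0.0237 by limma), and this low control level enters its 3D difference. SDC4 responded more in spheroids by 1.87 (SE 0.24, adjusted p = 0.0459 by limma), with differences of 3.00 and 1.14. S100A10, which encodes a calcium-binding family member that is also an envelope component, was named after its values were seen. It read 14.79 and 14.58 in 3D treated, 14.25 and 14.26 in 3D control, 13.13 and 13.29 in 2D treated and 13.85 and 13.80 in 2D control cultures. Neither response passed alone, at 0.42 in spheroids (adjusted p = 0.0616 by limma) and −0.61 in monolayers (adjusted p = 0.155 by limma), and the responses differed by 1.04 (SE 0.13, adjusted p = 0.0439 by limma). Among the markers, the 3D response minus the 2D response was 1.27 for KRT15 (adjusted p = 0.0454 by limma), −0.61 for AKR1B10 (adjusted p = 0.025 by limma) and −1.31 for NQO1 (adjusted p = 0.0468 by limma).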

How the results depend on the processing

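Over the alternatives, LCE3D kept the sign of its measured 3D difference against controls at background, at 9.08 without 3D treated replicate 1 and 10.54 without 3D treated replicate 2. The count of members over 1 in 3D was 1 to 2 when an array was left out, with IVL joining without 3D treated replicate 2. The filter on dim probe sets left LCE3D, SPRR1A and TGM2 of the members and called 1 of them, SPRR1A, between the controls. The 4 calls among other envelope genes in 3D became 1 with only the 4 arrays and 3 to 8 with an array left out, and the 0 calls in 2D became 0 to 1, the 1 without 2D control replicate 1. SPRR1A in 2D turned to −0.07 without 2D control replicate 2 and −0.08 without 2D treated replicate 1, and was 0.11 without 2D treated replicate 2. On the probe set with the largest difference TGM2 turned to 0.13 in 2D and 0.31 between the controls. Over the whole array, the 5919 calls in 3D became 9396 with the dim filter, 981 with only the 4 arrays, 3915 over 1 probe set per gene and 3630 to 7906 with an array left out. The 100 calls in 2D became 444, 19, 39 and 37 to 1585 under the same alternatives, and 213 with array medians subtracted. The 3983 calls between the controls became 7857 with the filter, 478 with only the 4 arrays, 2509 with ordinary t statistics and 2143 to 3636 with an array left out. Same-numbered arrays did not deviate together in all pairs of groups (correlations −0.015 to 0.283), so the numbers were not taken to pair them. With the replicate block 3883, 29 and 1788 probe sets were called in 3D, in 2D and between the controls, and 0 members in 2D and between the controls. Of the 11 further genes named from the 3D calls, the block lost 3 (ABCA12, KLF4 and ITGB3) and only the 4 arrays lost 9, all but PPL and SDC4. Of these calls SDC4 alone was lost in 0 of 17 alternatives. Where an array was left out, the remaining array of its group was taken to vary as the other groups do. The cause of these changes was not tested beyond the fewer probe sets or arrays that an alternative uses. The rule of the largest difference could not be applied to counts over the whole array.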
